A study of Mus musculus with 8 samples.

Results

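The genes described here are 7 of the 55414 genes in an RNA sequencing table of mouse testis: the protamine genes Prm1, Prm2 and Prm3, the transition protein genes Tnp1 and Tnp2, and the chromatin remodelling genes Brdt and Chd5. They were taken by name, as genes of histone replacement in spermatids, with earlier results of these data known. The table lists them as ENSMUSG00000022501 (Prm1), ENSMUSG00000038015 (Prm2), ENSMUSG00000050058 (Prm3), ENSMUSG00000026182 (Tnp1), ENSMUSG00000043050 (Tnp2), ENSMUSG00000029279 (Brdt) and ENSMUSG00000005045 (Chd5). The labels give 4 testis samples of mice treated with valine, a branched-chain amino acid, and 4 control testis samples. The labels state no strain, genotype, age, dose, route or duration, and do not say that samples are separate animals. P-values therefore cover the spread among these 8 samples alone, which could be technical. The design text names the effect of valine on the testis as the question.

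During the last steps of sperm formation the nucleus of the spermatid is repacked. Testis-specific histone variants loosen the nucleosomes, the histones are acetylated, bound by bromodomain proteins and removed, transition proteins take their place for a short time, and protamines, small proteins rich in arginine, then condense the DNA. The messenger RNAs of transition proteins and protamines are made in round spermatids and stored, bound by proteins, before they are translated in elongating spermatids.

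The table gives FPKM, fragments scaled by transcript length and by a total for the library. Multiplied by exon length, the values came out as whole fragments, which gave 17379421 to 19820676 fragments in the valine samples and 16741645 to 19405608 in the control samples. FPKM totals were 1027662 to 1070524 in valine and 944659 to 974626 in control samples. The testis label was checked with marker lists: spermatid, spermatocyte and Sertoli cell markers were present in every sample, and of 5 epididymis markers none reached a mean of 1 FPKM. The epididymis list summed to 0.139 to 0.590 FPKM in valine and 0.211 to 5.46 FPKM in control samples, with Lcn5 at 0 in every control sample and Adam7 at 0 in every valine sample.

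The 5 protamine and transition protein genes were higher in the valine testes, and the 2 remodelling genes did not pass in the fit of the deposited values. Prm1, Prm2, Prm3, Tnp1 and Tnp2 were each 1.35 to 1.45 times higher, and the valine and control samples did not overlap for any of them. Of all 22077 genes tested, 4.32% were called higher and 4.41% lower, 8.73% in all (limma on log2(FPKM + 1), Benjamini-Hochberg adjusted p below 0.05 over all tested genes). The groups did not overlap for 8.99% as higher and 9.39% as lower. The count of 7 members was 5 higher, 0 lower and 2 without a call, and all 7 passed the filter of a mean of at least 1 FPKM. Among 349 other genes under 1000 bp that averaged 100 FPKM or more, 33.5% were called higher and 0.86% lower. Of the 5 genes called higher, 2 stayed called after removal of a length trend and 1 after quantile normalisation. Their median log2 change was 0.47, against 0.02 over all tested genes. In whole testis, a change in the number of cells of a type and a change in RNA per cell cannot be told apart.

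**Figure D1:**
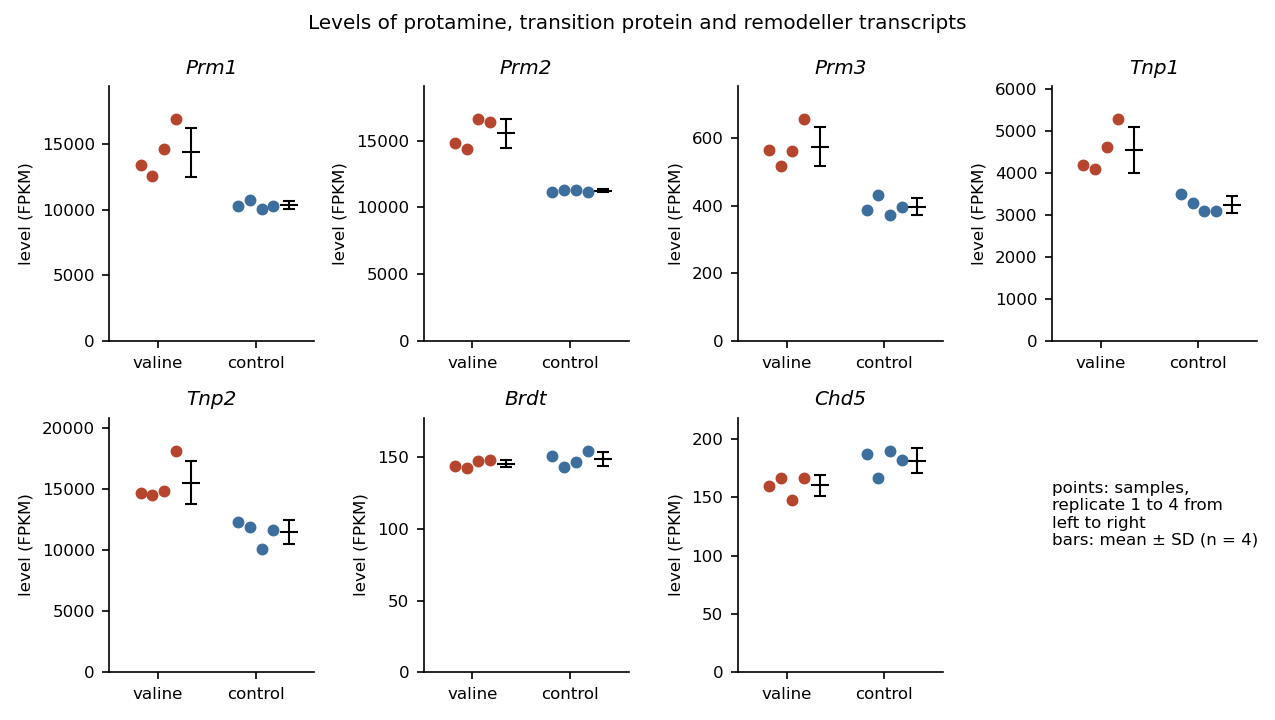
Level in FPKM (linear axes from 0) of the 7 genes in each of 4 valine and 4 control samples, with mean ± SD beside the points. The valine samples of Prm1, Prm2, Prm3, Tnp1 and Tnp2 all lie above the control samples, and those of Brdt and Chd5 overlap with them.

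Most of the protein genes lie in a row on chromosome 16, in the order Tnp2, Prm3, Prm2 and Prm1, between Socs1 and Rmi2 in the RefSeq annotation. Tnp1 lies on chromosome 1, Chd5 on chromosome 4 and Brdt on chromosome 5. The promoters of the protein genes are printed because these genes, in the chromosome 16 row and, for Tnp1, on chromosome 1, were all higher in valine. A part of the promoters in this was not tested. Each line holds the 250 bases before the RefSeq start of the gene, 5′ to 3′ on the strand of the gene (GRCm38.p6, an older build than the one the authors aligned to). In GENCODE, which gave the exon lengths, Prm1 reaches upstream to base 10805839 and Prm2 to base 10796134. The windows of these genes therefore lie inside their GENCODE spans. Capitals mark matches, on either strand, to TGACNTCA, the cyclic AMP response element with any base in its middle position, to TGACG, its shorter form, or to TATAA, the core of the TATA box.
Prm1 (chr16:10796824-10797073, minus strand): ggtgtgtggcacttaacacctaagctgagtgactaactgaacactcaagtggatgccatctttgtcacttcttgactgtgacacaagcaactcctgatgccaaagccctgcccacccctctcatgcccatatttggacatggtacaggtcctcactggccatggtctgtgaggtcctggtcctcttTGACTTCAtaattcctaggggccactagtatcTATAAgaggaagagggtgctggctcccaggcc
Prm2 (chr16:10792106-10792355, minus strand): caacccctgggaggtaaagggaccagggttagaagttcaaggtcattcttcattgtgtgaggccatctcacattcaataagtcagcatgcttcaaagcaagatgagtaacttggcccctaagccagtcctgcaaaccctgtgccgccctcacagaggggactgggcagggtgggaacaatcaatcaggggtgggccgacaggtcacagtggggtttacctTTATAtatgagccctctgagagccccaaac
Prm3 (chr16:10790915-10791164, minus strand): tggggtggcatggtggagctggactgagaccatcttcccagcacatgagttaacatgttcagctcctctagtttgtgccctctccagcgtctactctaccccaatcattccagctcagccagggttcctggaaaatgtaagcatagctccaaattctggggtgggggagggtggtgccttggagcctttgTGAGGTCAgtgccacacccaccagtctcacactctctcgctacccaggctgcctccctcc
Tnp1 (chr1:73015900-73016149, minus strand): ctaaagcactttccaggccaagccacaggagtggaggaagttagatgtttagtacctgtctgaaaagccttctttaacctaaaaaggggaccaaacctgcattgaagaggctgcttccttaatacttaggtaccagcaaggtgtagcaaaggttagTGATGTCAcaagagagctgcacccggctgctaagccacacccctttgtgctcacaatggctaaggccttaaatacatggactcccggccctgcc
Tnp2 (chr16:10788656-10788905, minus strand): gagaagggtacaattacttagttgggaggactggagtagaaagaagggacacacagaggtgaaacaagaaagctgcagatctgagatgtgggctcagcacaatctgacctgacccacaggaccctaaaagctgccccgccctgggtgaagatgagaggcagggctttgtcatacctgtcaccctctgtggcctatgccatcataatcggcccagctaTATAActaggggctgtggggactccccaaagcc

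In the Prm1 promoter TGACTTCA lay 64 to 57 bases before the start and TATAA 32 to 28 bases before it. The Tnp1 promoter held TGATGTCA, a match on the other strand, 94 to 87 bases before the start, and the Prm3 promoter TGAGGTCA 60 to 53 bases before it, also on the other strand. TATAA lay 33 to 29 bases before the start of Tnp2, and its reverse complement 30 to 26 bases before that of Prm2. Among 32851 promoters of the same length, 7.49% held TGACNTCA, 17.8% held TGACG and 22.8% held TATAA, where a full element with G in its middle counts under both of the first. The Chd5 promoter held only the short form, as CGTCA, and the Brdt window held none of the 3 motifs. These matches describe the letters in the windows.

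Prm1 encodes the protamine that is made in its mature form. Its level was 13382, 12580, 14595 and 16890 FPKM in valine replicates 1 to 4, against 10312, 10723, 10020.3 and 10312 FPKM in control replicates 1 to 4. The lowest valine sample lay above the highest control sample, and valine replicate 4 was the highest of all. The means were 14362 ± 1878 FPKM in valine and 10342 ± 289 FPKM in control testes (SD, n = 4 each), a log2 change of 0.47 ± 0.085 (SE, limma adjusted p = 0.016). Fold and log2 changes of genes are on the log2(FPKM + 1) scale, except those of limma-voom, which are of recovered fragments.

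Prm2 encodes the protamine that is made as a precursor and cut to its mature form on the DNA. Its level was 14788, 14406, 16599 and 16357 FPKM in valine replicates 1 to 4, against 11122, 11330.3, 11319 and 11168 FPKM in control replicates 1 to 4. The control samples lay within a narrow band and every valine sample was above it. The means were 15537 ± 1101 FPKM in valine and 11235 ± 106 FPKM in control testes (SD, n = 4 each), a log2 change of 0.47 ± 0.054 (SE, limma adjusted p = 0.0038).

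Prm3 lies between Prm2 and Tnp2 and encodes a protein that is acidic, unlike the other protamines, and is found in the cytoplasm of mouse spermatids. Its level was 565, 516, 562 and 655 FPKM in valine replicates 1 to 4, against 386, 431, 373 and 395 FPKM in control replicates 1 to 4. The groups did not overlap. The means were 574 ± 58.2 FPKM in valine and 396 ± 24.9 FPKM in control testes (SD, n = 4 each), a log2 change of 0.53 ± 0.077 (SE, limma adjusted p = 0.0072).

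Tnp1 encodes the smaller transition protein. Its level was 4198, 4088, 4610.4 and 5275 FPKM in valine replicates 1 to 4, against 3500.4, 3288, 3100.0 and 3088 FPKM in control replicates 1 to 4. The groups did not overlap, and valine replicate 4 was again the highest sample. The means were 4543 ± 537 FPKM in valine and 3244 ± 194 FPKM in control testes (SD, n = 4 each), a log2 change of 0.48 ± 0.084 (SE, limma adjusted p = 0.014). Exons of Tnp1 overlap those of 1700027A15Rik on the other strand, which had 437 ± 41.3 FPKM in valine and 332 ± 20.01 FPKM in control testes (SD, n = 4 each). The strand setting of the counting is not stated, so reads of this pair cannot be told apart.

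Tnp2 encodes the transition protein that, in the rat, binds zinc. Its level was 14687, 14480.3, 14809 and 18128 FPKM in valine replicates 1 to 4, against 12312, 11888, 10122 and 11653 FPKM in control replicates 1 to 4. Valine replicates 1 to 3 lay close together, replicate 4 stood well above them, and no control sample reached the lowest of them. The means were 15526 ± 1740.1 FPKM in valine and 11494 ± 954 FPKM in control testes (SD, n = 4 each), a log2 change of 0.43 ± 0.089 (SE, limma adjusted p = 0.023). Without valine replicate 1 or control replicate 2 the limma adjusted p of Tnp2 was 0.052, and the calls of the other 4 genes held without any single sample.

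Brdt is the testis-specific member of the BET family, whose bromodomains bind acetylated histone tails. Its level was 143.7, 142.4, 146.7 and 147.6 FPKM in valine replicates 1 to 4, against 150.4, 142.5, 146.6 and 154.1 FPKM in control replicates 1 to 4. The groups overlapped, with control replicates 1 and 4 above every valine sample. The means were 145 ± 2.44 FPKM in valine and 148 ± 4.98 FPKM in control testes (SD, n = 4 each), a log2 change of -0.03 with a 95% interval of -0.12 to 0.06 (limma adjusted p = 0.67).

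Chd5 encodes a chromodomain helicase that, in the mouse, is needed for histone removal in spermatids. Its level was 159.6, 166.6, 147.8 and 166.6 FPKM in valine replicates 1 to 4, against 187.0, 166.4, 189.8 and 182.1 FPKM in control replicates 1 to 4. Control replicate 2 lay within the valine range and the other 3 control samples above it. The means were 160 ± 8.86 FPKM in valine and 181 ± 10.4 FPKM in control testes (SD, n = 4 each), a log2 change of -0.18 with a 95% interval of -0.31 to -0.04 (limma adjusted p = 0.10). That interval is not adjusted for the number of genes tested. Chd5 passed as lower in valine after rescaling to equal FPKM totals (log2 change -0.29, limma adjusted p = 0.017) and after quantile normalisation (-0.30, limma adjusted p = 0.018). Gm13645, whose exons overlap those of Chd5 on the other strand, had at most 1.40 FPKM in valine and 1.33 FPKM in control samples.

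By level per length the 7 genes fell into 4 steps in both groups. Prm2, Tnp2 and Prm1 were the most abundant, and in the valine samples their ranges overlapped. In the control samples Prm1 (10020.3 to 10723 FPKM) lay below Prm2 (11122 to 11330.3 FPKM) without overlap, and Tnp2 overlapped with both. Tnp1 and then Prm3 followed at lower levels, and Chd5 and Brdt were lowest. The lowest Chd5 sample lay above the highest Brdt sample in both groups, in valine by a small margin (147.8 against 147.6 FPKM). Among all genes of a sample Prm1 ranked 2 to 4 in valine and 4 in every control sample, Prm2 1 to 3 in valine and 2 to 3 in control samples, and Tnp2 1 to 3 in valine and 2 to 3 in control samples. Tnp1 ranked 12 to 18 in valine and 18 to 19 in control samples, and Prm3 200 to 263 in valine and 277 to 368 in control samples. Together the 5 protein genes held 4.48 to 5.35% of the FPKM total in valine and 3.63 to 3.98% in control samples. By fragments, which favour long transcripts, their share was 1.18 to 1.39% in valine and 0.893 to 0.9755% in control samples.

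Counting error was smaller than the spread between samples in the 5 protein genes. Prm3, the least abundant of them, was read by 1511 to 1983 fragments in valine and 1032 to 1217 in control samples. Its counting SD was 2.25 to 2.57% in valine and 2.87 to 3.11% in control samples, against an SD between samples of 10.1% in valine and 6.29% in control. Prm2 was read by 87823 to 112926 fragments in valine and 67653 to 76314 in control samples, a counting SD of at most 0.337% in valine and 0.385% in control. Its SD between samples was 7.09% in valine and 0.94% in control. Brdt had 4882 to 5711 fragments in valine and 4869 to 5919 in control samples, with an SD between samples of 1.68% in valine and a counting SD of 1.32 to 1.43% there. Reads carry no molecular identifiers, so these figures cover counting error only.

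The proportions among the protein genes were compared within samples, where scaling between samples drops out. The Prm2 to Prm1 ratio of FPKM was 1.09 ± 0.0822 in valine and 1.09 ± 0.0307 in control testes (SD, n = 4 each), with no difference in an exact two-sided permutation test (p = 1.0). Valine replicate 4, at 0.968, was the only sample in which Prm1 exceeded Prm2. The Prm1 to Tnp1 ratio was 3.16 ± 0.0560 in valine and 3.19 ± 0.172 in control testes (exact permutation p = 0.74). Tnp2 to Tnp1 was 3.42 ± 0.147 in valine and 3.54 ± 0.213 in control testes (exact permutation p = 0.37), and Prm3 to Prm1 was 0.0401 ± 0.0018 in valine and 0.0383 ± 0.0014 in control testes (exact permutation p = 0.17). The differences in mean log2 ratio, taken on FPKM with nothing added, were between -0.05 and 0.07, far below the changes of the genes themselves. The Chd5 to Brdt ratio was 1.104 ± 0.0689 in valine and 1.222 ± 0.0586 in control testes, a log2 difference of -0.15 (exact permutation p = 0.057). Adjusted over the 5 ratios its p was 0.29, and the smallest p that 4 against 4 samples allow is 0.0286. A p above the threshold does not show that ratios are equal.

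**Figure D2:**
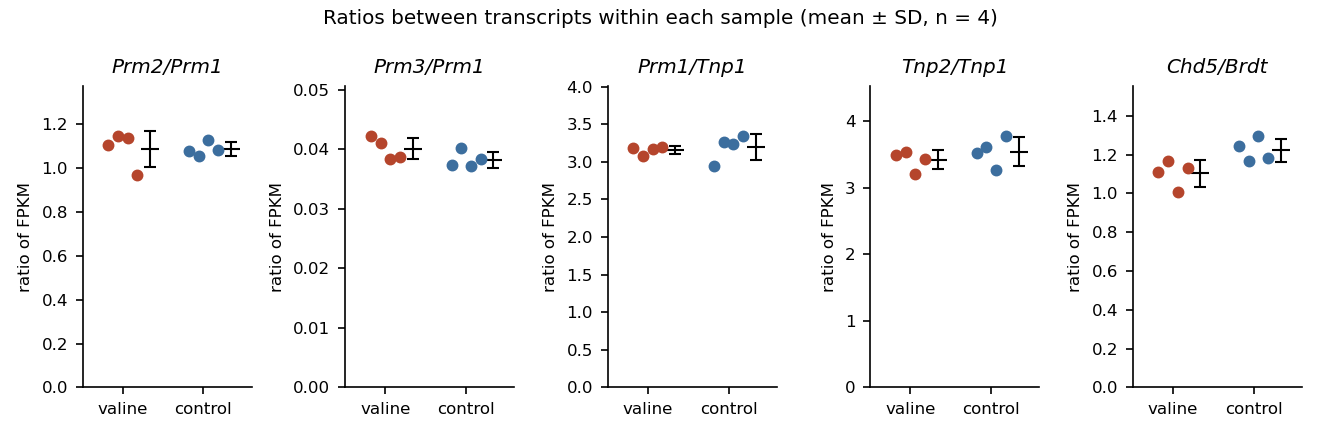
Ratio of FPKM (linear axes from 0) for 5 pairs of genes in each of 4 valine and 4 control samples, with mean ± SD. The groups overlap in all 5 ratios, and the gap between the means is widest, relative to the spread, for Chd5 to Brdt.

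The 5 protein genes have short transcripts and the 2 remodelling genes long ones. Exon length was 571 bp for Prm1, 894 bp for Prm2, 410.0 bp for Prm3, 437 bp for Tnp1 and 554 bp for Tnp2, against 5115 bp for Brdt and 9583 bp for Chd5. Change moved with length over all genes. Genes were put into 5 bins of about equal size by length. In the bin of the shortest genes (12 to 807 bp, n = 4339), 218 were higher and 38 lower in valine, with a median log2 change of 0.15. In that of the longest (5784 to 41155 bp, n = 4337), 51 were higher and 384 lower, with a median of -0.10. Among the 349 other genes under 1000 bp that averaged 100 FPKM or more, a limit chosen after the data were seen, 117 were higher and 3 lower, with a median of 0.29. In 44 of those 349 genes the log2 change was at least the 0.43 of Tnp2. Of the 31 among them that averaged 1000 FPKM or more, 14 were higher and 0 lower, with a median of 0.29.

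After a smooth trend on length was removed from each sample, the log2 change was 0.34 for Prm2 (limma adjusted p = 0.018) and 0.40 for Prm3 (limma adjusted p = 0.026), and both stayed called. It was 0.33 for Prm1, 0.35 for Tnp1 and 0.30 for Tnp2, with limma adjusted p of 0.072, 0.063 and 0.098. Brdt was at 0.05 and Chd5 at -0.05 in that fit. Scaling to equal FPKM totals, which moved the median of all genes from 0.02 to -0.08, left all 5 protein genes called at 0.31 to 0.41. Over all genes it gave 363 higher and 2028 lower (15.2% higher), against 954 and 974 as deposited (49.5% higher). Quantile normalisation gave 398 and 1029 (27.9% higher). It gives each rank the same value in every sample, which limits how far a gene near rank 1 in both groups can differ. After quantile normalisation Prm3 stayed called (0.35, limma adjusted p = 0.031), and Prm1, Prm2, Tnp1 and Tnp2 did not, at 0.10, 0.17, 0.25 and 0.15. Tnp1 was further from rank 1, at 12 to 18 in valine and 18 to 19 in control samples. The part of rank in these lost calls was not tested. On the recovered fragments limma-voom called all 5 higher, at 0.40 to 0.50, and Chd5 lower at -0.22 (limma adjusted p = 0.025); it called 3.72% of 21239 genes higher and 7.19% lower.

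**Figure D3:**
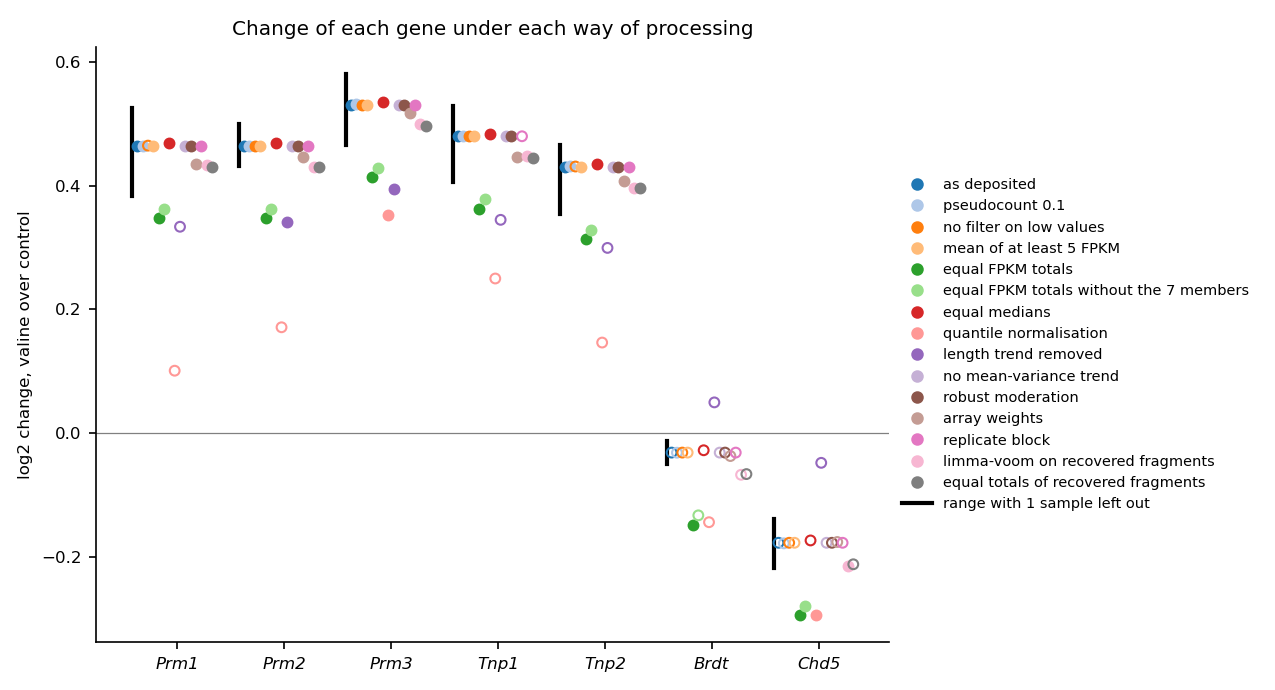
Log2 change, valine over control, of each of the 7 genes under 15 ways of processing (coloured points, filled where the limma adjusted p is below 0.05), with the range over leaving out each sample as a black bar. The 5 protein genes stay above 0 in every setting, lowest after quantile normalisation and removal of the length trend, and Brdt changes sign once.

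Other genes of histone replacement were described by list. Of 12 histone variants of spermatids, 4 rose, 0 fell and 8 did not pass, with a median log2 change of 0.11. H2al2a, which in the mouse opens nucleosomes for the transition proteins, had 615 ± 45.9 FPKM in valine and 418 ± 3.69 FPKM in control testes (SD, n = 4 each; log2 change 0.55, limma adjusted p = 0.0028). It belongs to a family of close copies, between which reads may be split. H2bl1, another short variant, rose with a log2 change of 0.43 (limma adjusted p = 0.0070), H1f7, a spermatid linker histone, with 0.32 (limma adjusted p = 0.031), and H3f3a, which encodes a replacement histone H3, with 0.27 (limma adjusted p = 0.012). H1f9, a linker histone of late spermatids, did not pass at 0.13 (limma adjusted p = 0.50). With equal FPKM totals 3 of the 12 were higher, with quantile normalisation 2, and 0 were lower in either.

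Of 22 genes of histone marking and removal, 1 rose and 0 fell, with a median log2 change of -0.07. The riser was Tssk6, a spermatid kinase, with 482 ± 18.4 FPKM in valine and 382 ± 24.4 FPKM in control testes (SD, n = 4 each; log2 change 0.34, limma adjusted p = 0.011). Dot1l, the histone H3 lysine methyltransferase, was at -0.37 (limma adjusted p = 0.053), and Psme4, the activator of the proteasome that degrades acetylated histones, at -0.39 (limma adjusted p = 0.065). Neither passed. Their groups did not overlap, which held for 5 of the 22 genes as lower and 2 as higher. Over all tested genes the shares were 9.39% as lower and 8.99% as higher. With equal FPKM totals 5 genes of the list were lower and 1 higher, and after removal of the length trend 0 were lower and 1 higher. Among the relatives of the remodellers, Chd3, a subunit of a deacetylase complex, was the only 1 of 8 other CHD genes called in the fit of the deposited values, with 24.2 ± 1.79 FPKM in valine and 32.6 ± 1.94 FPKM in control testes (SD, n = 4 each; log2 change -0.42, limma adjusted p = 0.013). The 8 had a median of -0.23, and 0 were higher and 3 lower at equal FPKM totals, 0 and 2 after quantile normalisation, and 0 and 3 with limma-voom. These genes are long, at 8019 to 23148 bp. After removal of the length trend their median was -0.09, with 0 higher and 1 lower. Of the 3 BET genes besides Brdt, 0 were called in the fit of the deposited values, with a median of -0.13. Brd2, a BET gene whose protein binds acetylated histones, was at -0.13 in the fit of the deposited values (limma adjusted p = 0.38). At equal FPKM totals and with limma-voom 0 of the 3 were higher and 1 lower. After removal of the length trend 0 were called, with a median of -0.02.

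Genes of haploid transcription and of spermatid transcript storage had calls in both directions in the fit of the deposited values. Of 11 genes of transcription in haploid cells, 2 rose and 2 fell. Crem, the activator that binds cyclic AMP response elements in round spermatids, had 96.6 ± 3.36 FPKM in valine and 83.5 ± 2.96 FPKM in control testes (SD, n = 4 each; log2 change 0.21, limma adjusted p = 0.031), and Tbpl1, a relative of the TATA-binding protein, rose by 0.33 (limma adjusted p = 0.018). Kif17, a motor protein that moves a partner of Crem, fell by 0.34 (limma adjusted p = 0.041) though its groups overlapped, and Rfx2, a regulator of spermatid genes, fell by 0.23 (limma adjusted p = 0.035). With equal FPKM totals or quantile normalisation 0 of the 11 were higher and 2 lower. With the length trend removed 2 were higher and 0 lower, and with limma-voom 2 were higher and 2 lower. Of 13 genes of storage and translation of spermatid transcripts, 5 rose and 1 fell, with a median of 0.11. Ybx2, whose protein holds stored transcripts, had the highest FPKM of the list. It had 2903 ± 149 FPKM in valine and 2491 ± 25.1 FPKM in control testes (SD, n = 4 each; log2 change 0.22, limma adjusted p = 0.020). Its relative Ybx3 rose by 0.31 (limma adjusted p = 0.017), Paip2, which restrains poly(A)-binding protein, by 0.25 (limma adjusted p = 0.017), and Fxr1, which activates stored transcripts, by 0.24 (limma adjusted p = 0.017). Tarbp2, needed in the mouse for protamine translation, rose by 0.23 (limma adjusted p = 0.031). Celf1, an RNA-binding repressor, fell by 0.38 (limma adjusted p = 0.010). The split of this list turned with scaling, with 1 higher and 2 lower at equal FPKM totals and 0 higher and 2 lower after quantile normalisation. It was 5 higher and 1 lower with the length trend removed, and 5 higher and 2 lower with limma-voom.

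**Figure D4:**
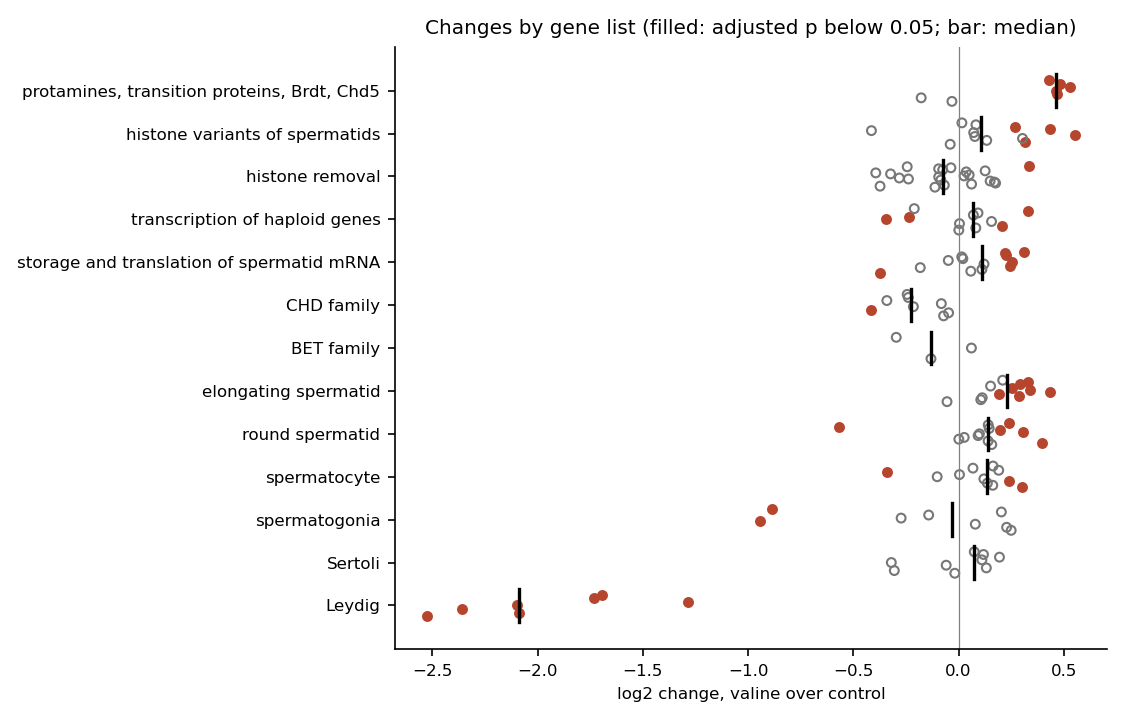
Log2 change, valine over control, of each tested gene by list, filled where the limma adjusted p is below 0.05, with the median of each list as a bar. The 5 protein genes lie between 0.43 and 0.53, with the elongating spermatid list at a median of 0.23 and the Leydig list at -2.09.

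Of 4 tested neighbours of the chromosome 16 cluster 0 were called higher. Clec16a, a regulator of mitochondrial turnover, was lower in valine at 19.7 ± 1.26 FPKM, against 24.8 ± 1.23 FPKM in control testes (SD, n = 4 each; log2 change -0.32, limma adjusted p = 0.025). After removal of the length trend 0 of the 4 were called. Socs1, Dexi and Rmi2 had at most 4.81 FPKM in either mean and did not pass, and Ciita and Tvp23a lay below the filter.

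Markers of germ cells and of the cells around them were counted in the same fit. Of 12 elongating spermatid markers 7 rose and 0 fell, with a median log2 change of 0.23. Meig1, needed for the manchette, had 2354 ± 132 FPKM in valine and 1744 ± 69.2 FPKM in control testes (SD, n = 4 each; log2 change 0.43, limma adjusted p = 0.0040), Oaz3 rose by 0.34, Spem1 by 0.33 and Smcp by 0.29. Of 13 round spermatid markers 4 rose and 1 fell, and of 11 spermatocyte markers 2 rose and 1 fell. With equal FPKM totals 4 elongating spermatid markers were higher and 0 lower, and with quantile normalisation 1 was higher and 0 lower. The round spermatid list had 1 higher and 1 lower under both scalings, and the spermatocyte list 0 higher, with 1 lower at equal FPKM totals and 2 lower after quantile normalisation. Of 9 Sertoli markers none passed. Of 8 spermatogonial markers 0 rose and 2, Kit and Zbtb16, fell, with a median log2 change of -0.03. In that list the groups did not overlap for 3 markers as higher and 2 as lower in valine. Its summed level was 116 to 134 FPKM in valine and 108 to 127 FPKM in control samples. All 7 Leydig markers fell, and their summed level was 461 to 751 FPKM in valine and 1580.4 to 2243 FPKM in control samples. All 4 stromal markers fell, with sums of 12.3 to 16.2 FPKM in valine and 33.9 to 49.8 FPKM in control samples. Of 5 macrophage markers 3 fell, with sums of 26.4 to 32.1 FPKM in valine and 61.0 to 77.6 FPKM in control samples. None of these markers was at 0 in a group. The part of cell makeup and of transcript length in the higher protamine and transition protein levels was not tested.

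Patterns over the 8 samples were compared with those of 10118 genes of 10 FPKM or more on average, by the root mean square difference of log2 values centred on each gene. The genes most like Prm1 were Tma7 (0.045), Tfam, a mitochondrial transcription factor (0.048), and Tnp1 (0.052). Those most like Tnp1 were Ppp1r2-ps7 (0.051), which is named as a pseudogene and may share reads with its parent gene, then Prm1 (0.052) and Hmgb4, a germ cell chromatin protein (0.057). Genes among those most like Brdt were Golga7 (0.022) and Nek4 (0.023). Those most like Chd5 were Manea (0.032), Icmt (0.040) and Rnps1 (0.041).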

How the data were processed

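Total RNA of frozen mouse testis was sequenced in 4 valine and 4 control samples. The authors deposited FPKM values for 55414 genes; alignment was with HISAT2 to GRCm39, per the submitters' processing notes. No source used here names the quantifier, the strand setting or the annotation release. Columns were matched to samples by group name and replicate number. Symbols and exon lengths came from GENCODE vM21 and RefSeq tables of an older build (52081 genes named, 52133 with a length).

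Deposited FPKM times exon length gave whole fragments for 98.7% to 98.8% of values checked (within 0.1 fragment beyond rounding). Values checked were those with a recovered fragment and a small rounding error. After noise was added, 19.2% to 20.0% of the larger values were whole within 0.1 fragment, with no allowance for rounding. The sets and limits of these shares are unlike. The divisor behind the FPKM was 6643083 to 7609938 fragments in valine and 6678970 to 7674933 in control samples, below the recovered totals by a factor of 2.55 to 2.65 in valine and 2.51 to 2.58 in control; no source used here says what it counts.

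The 22077 genes that averaged 1 FPKM or more were fitted as log2(FPKM + 1) with limma 3.58.1 in R 4.3.3. Tests were two-sided, variances were moderated with a trend on the mean, and p-values were adjusted by Benjamini-Hochberg at 0.05. The fit was tested on simulated data. It recovered 26% of 100 genes with a true log2 change of 0.5 and 47% of 100 with a change of 1. Of its 80 calls 7 were false. A gene that did not pass may therefore still differ. The changed genes were drawn at random from 21239, so the recovered shares are averages and do not give the power for Brdt or Chd5. Ratios were compared by exact permutation over 70 arrangements in Python 3.11.15. Alternatives were another pseudocount, filters, scalings, removal of a length trend (loess span 0.3), other moderation, array weights, a replicate block and leaving out each sample. After the data were seen, limma-voom on recovered fragments and scaling to their totals were added.

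The 7 genes and all lists were chosen with earlier results of these data known. Named genes are the 7, in each list the 4 largest changes past the threshold (or, with none past it, the 2 of smallest p), and the 3 most alike for each of Prm1, Tnp1, Brdt and Chd5. H1f9, Dot1l, Psme4, Tarbp2, Ybx2, Dexi, Rmi2, Socs1, Ciita, Tvp23a, Lcn5 and Adam7 fall outside this rule and were picked with their values in view; 1700027A15Rik and Gm13645 were named for their overlap. Some genes that the rule gives are not reported here.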

Additional observations from a re-analysis of the deposited data

Results flagged for a closer look

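The Tnp2 level in valine replicate 4, 18128 FPKM, stood far from the other valine samples, at 14480.3 to 14809 FPKM. Its gap to the nearest of them was 0.910 of the whole range of the group. Without that sample the log2 change of Tnp2 was 0.35 (limma adjusted p = 0.032). Of 24 groups of 4 values examined this was the only one so marked, and chance marks about 1 in 20.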

How the results depend on the processing

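Prm3 stayed called higher in all 22 alternatives, at 0.35 to 0.58 on the log2 scale. Prm2 stayed called in 21 (0.17 after quantile normalisation). Prm1 fell below the threshold without a filter (0.47), after quantile normalisation (0.10) and after removal of the length trend (0.33). Tnp1 did so after quantile normalisation (0.25), removal of the length trend (0.35) and with the replicate block (0.48). Tnp2 did so without a filter (0.43), after quantile normalisation (0.15), after removal of the length trend (0.30), and without control replicate 2 (0.45) or valine replicate 1 (0.46), within a leave-one-out range of 0.35 to 0.47. Without a filter 42171 genes enter the adjustment. Brdt passed as lower at equal FPKM totals (-0.15) and changed sign to 0.0495 after removal of the length trend. Chd5 passed as lower at equal FPKM totals (-0.29), at equal totals without the 7 genes (-0.28), after quantile normalisation (-0.30) and with limma-voom (-0.22). The Prm2 to Prm1 log2 ratio difference changed sign from -0.00012 to 0.0071 after removal of the length trend (exact permutation p = 0.97). The causes were not tested.

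Over all genes, 954 were higher and 974 lower. The number higher was 568 without a filter, 363 at equal FPKM totals, 411 at equal totals without the 7 genes, 398 after quantile normalisation and 503 without the trend. The number lower was 2028 at equal totals, 1782 at equal totals without the 7 genes and 1528 with limma-voom. Higher genes were 18.7% of calls at equal totals without the 7 genes, 37.3% without the trend, 34.1% with limma-voom and 60.3% with a mean of at least 5 FPKM. Leaving out a sample gave 381 to 795 higher and 461 to 802 lower. The counts were 381 and 461 without control replicate 1, 466 and 562 without control replicate 2, and 410 and 489, 593 and 578, 629 and 647, and 580 and 614 without valine replicates 1 to 4.

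Same-numbered samples did not pair: their deviations correlated at -0.017, -0.040, 0.10 and 0.11, and not every sample correlated best with its own number. The replicate block gave 581 genes higher and 489 lower. Sign-flip tests with the replicate block passed no ratio; the smallest p they allow is 0.125.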
